A study of Homo sapiens with 4 samples.

Results

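The S100 genes encode small calcium-binding proteins, and 10 of them were followed here: S100A8, S100A9, S100A2, S100A4, S100A6, S100A10, S100A11, S100A13, S100A16 and S100P. They are 10 of the 21 S100 genes and of the 58302 genes listed in the deposited tables. The set was chosen by measured values of these same libraries, because S100A8 fell with doxycycline (dox). The values of S100A8, and the pattern of its partner S100A9, are therefore a description and carry no test of their own. The question was whether S100A8 moved together with S100A9 or with the whole cluster of S100 genes on chromosome 1q21.

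RNA was measured in bulk in NCI-H838, a line grown from a human non-small cell lung cancer, at day 3. In both groups the cells were MIB1-iKO cells, which carry a piggyBac transposon holding a guide RNA against MIB1, a Cas9 gene that dox switches on and a puromycin resistance gene. MIB1 encodes the E3 ubiquitin ligase Mind Bomb 1. The 2 no dox libraries received none, and the 2 dox libraries received 0.5 μg/mL for 3 days. The cells were selected with puromycin and derived from single-cell clones, and which guide and clone gave these libraries is not given in the sources used here. Cells without the guide were not analysed here, so an effect of dox and an effect of MIB1 loss cannot be told apart.

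The libraries held between 15943025 and 24398411 reads, fewer in both dox libraries. Reads of MIB1 numbered 598 and 588 in no dox and 90 and 59 in dox, which follows the labels. Per degree of freedom, chi-square over gene counts was 8.26 and 8.18 between same-numbered libraries, against 9.34 within no dox and 13.1 within dox. Between a no dox and a dox library of unlike number it was 15.8 and 15.9. This measure grows with the number of reads, and the no dox libraries held the most. The value within no dox therefore does not show that these libraries were less alike than same-numbered ones. The dox libraries, with fewer reads, differed more from each other than same-numbered libraries did. Pairs of a no dox and a dox library with unlike numbers, drawn from the same libraries, also differed more than same-numbered ones. The main comparison of dox with no dox did not use the replicate number. The study calls its replicates biological, but the labels do not say what the number stands for, and p-values measure the spread between these libraries only.

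S100 proteins bind calcium through paired EF-hand motifs and then attach to other proteins, inside the cell or, after release, at receptors on its surface. S100A8 and S100A9 join into calprotectin, the heterodimer that neutrophils hold in large amounts, that sequesters zinc and manganese from microbes and that can signal through TLR4 and the receptor RAGE. Stressed and inflamed epithelia, including many carcinomas, also make both. Most S100 genes lie side by side in 1q21 next to the genes of the cornified skin envelope, whereas S100P lies on chromosome 4.

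S100A8 and S100A9 point toward each other from opposite strands, with their starts 33.2 kb apart and S100A12 between them. The 100 bases before the start of each of these 3 genes are shown because they are the S100 genes at the centre of the comparison. Capitals mark the letters TATAAA, whose first base lay 29 bases before the start of S100A8 and of S100A9 and 8 bases before that of S100A12. The place is not particular to the pair, since the letters began 29 bases before a start of S100A13, 28 before that of S100P and 31 before that of S100A4. RefSeq has 3 starts for S100A8, and the one shown matches the end of the gene in GENCODE. The same letters lie 126 bases before another start, and the window of the remaining one has none. The sequences are those of RefSeq on GRCh38.p14, read 5′ to 3′ along the gene, at chr1:153391074-153391173 on the minus strand for S100A8, chr1:153357754-153357853 on the plus strand for S100A9 and chr1:153375622-153375721 on the minus strand for S100A12.
S100A8: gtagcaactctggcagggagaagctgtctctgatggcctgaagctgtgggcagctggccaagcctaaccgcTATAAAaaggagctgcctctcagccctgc
S100A9: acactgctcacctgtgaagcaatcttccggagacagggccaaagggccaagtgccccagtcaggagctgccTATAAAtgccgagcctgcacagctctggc
S100A12: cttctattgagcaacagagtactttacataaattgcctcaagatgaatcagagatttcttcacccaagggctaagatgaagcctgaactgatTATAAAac

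Motifs were searched on both strands of windows of 300 bases, 250 before to 50 after each RefSeq start, and all 10 genes had a window. A gene was counted if any of its windows matched. The 10 genes had 16 windows, and all 27305 genes had 35116, so members had more windows per gene in which to match. TATAAA was found for 5 of them (S100A8, S100A9, S100A4, S100A13 and S100P), beside 13.99% of all genes with a window. TTNCNNAA, a loose form of the C/EBP site, was found for 7, beside 41.8% of all genes, and CCAAT for 3, beside 39.7%. CAGAC, a short SMAD site, was found for 8, beside 50.0% of all genes, and GGCGCC for S100P alone, beside 22.0%. TGANTCA, the AP-1 site, was found for S100A2 alone, beside 9.37% of all genes. A match is a description of letters and not evidence of a bound factor.

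The S100 genes spanned a wide range of levels, compared here per length as RPKM, reads scaled by gene length and sequencing depth. S100A6, or calcyclin, ranked 6 or 7 among all genes in every library, with 4009 and 3319 RPKM without dox and 4030 and 2848 with dox. S100A6 alone took from 0.256% to 0.327% of a library's reads. S100A10, the annexin A2 partner that is known for not binding calcium, followed with 1011 and 960 RPKM without dox and 963 and 859 with dox. S100A11, a partner of annexin A1, and S100A4, a binder of non-muscle myosin linked to cell movement, came next. At the low end S100A2, an epithelial S100 protein that binds p53, stood at 5.05 and 3.76 RPKM without dox and 6.24 and 3.80 with dox.

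Without dox the order was S100A6, S100A10, S100A11, S100A4, S100A16, S100A13, S100A9, S100P, S100A8 and S100A2, and of these neighbours S100A16 and S100A13 alone overlapped between libraries. With dox S100A13 and S100A16 again overlapped, and S100P and S100A9 overlapped as well. S100A8 kept the ninth place of 10 in both groups. Among all genes its rank by RPKM was 1109 and 1245 without dox and 2168 and 3443 with dox.

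**Figure D1:**
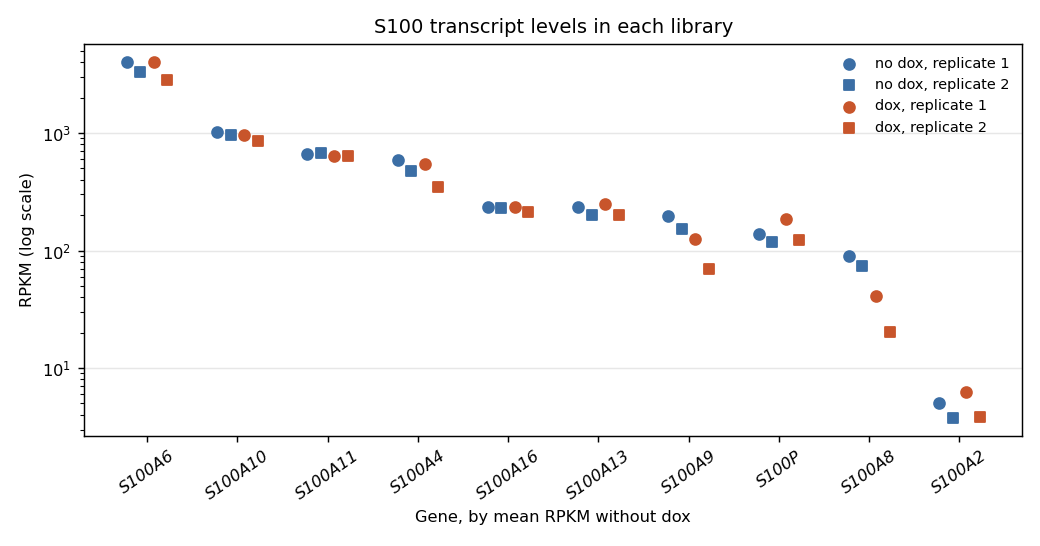
Level of each of the 10 S100 genes in the 4 libraries, in RPKM on a log axis, with no dox and dox in separate colours. The genes run from S100A6 at 2848 to 4030 RPKM to S100A2 at 3.76 to 6.24 RPKM, and S100A8 and S100A9 are the genes whose dox points sit clearly below the no dox points.

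S100A8 fell with dox, S100A9 was lower by a smaller amount, and the other 8 genes lay close to their level without dox. S100A8 had 90.3 and 73.3 RPKM without dox (81.8 ± 11.99, SD, n = 2) and 41.2 and 20.3 with dox (30.8 ± 14.8, n = 2). Its counts were 1364 and 1032 reads against 404 and 237. Both dox libraries were below both no dox libraries, and the second dox library was the lowest. The log2 fold change was -1.47 ± 0.23 (SE, 95% interval -1.95 to -0.99), and mean RPKM fell by 62.4%. Without the second dox library it was -0.96, and without the first it was -1.97. In bulk RNA, fewer cells with S100A8 transcripts and fewer transcripts per cell cannot be told apart.

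S100A9 had 196 and 152 RPKM without dox (174 ± 31.0, n = 2) and 124 and 70.1 with dox (97.1 ± 38.2, n = 2). The groups did not overlap here either, and the second dox library was again the lowest. The log2 fold change was -0.87 ± 0.19 (95% interval -1.28 to -0.45), below the 2-fold needed for a call and with an adjusted p of 0.167 in limma. Without the second dox library it was -0.47, and without the first it was -1.26.

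A call needed both a 2-fold change and an adjusted p no higher than 0.05 in limma. S100A8 was the 1 member called of the 10, all of which passed the filter on low counts, beside 0.0371% of the 16181 genes tested. Since that call chose the set, nothing is read from the count. On the log2 scale of the fit, the groups did not overlap for 2 members, S100A8 and S100A9, both lower, beside 19.1% of all genes lower and 19.5% higher. The same 2 members were lower at an unadjusted p under 0.05 and none was higher in limma, beside 4.59% of all genes lower and 4.68% higher. Of the 10 members 7 had a log2 fold change below 0, beside 50.1% of all genes, and the median was -0.08, beside -0.0004 over all genes.

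**Figure D2:**
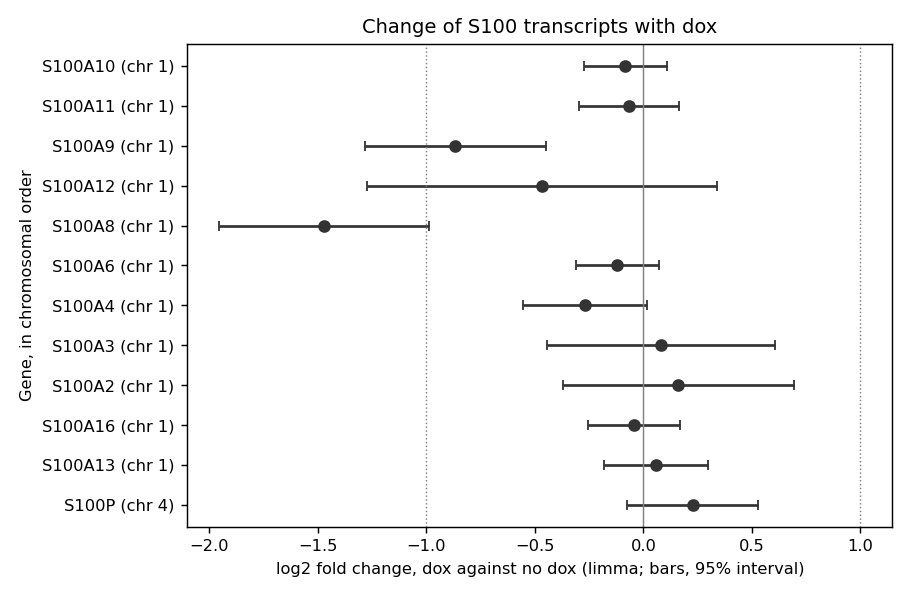
Log2 fold change of each S100 gene tested, dox against no dox, with points for the estimates from limma and bars for their 95% intervals. S100A3 and S100A12, which are outside the set, are drawn beside the 10 members. S100A8 at -1.47 and S100A9 at -0.87 have intervals below 0, and the intervals of all other genes drawn include 0.

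Among the remaining members none passed the test, with adjusted p-values in limma of 0.574 or more, and their log2 fold changes ran from -0.27 to 0.23 with a median of -0.06. S100A4 had 591 and 471 RPKM without dox and 548 and 348 with dox. Its groups overlapped, and the log2 fold change was -0.27 ± 0.13 (95% interval -0.55 to 0.02). For S100A6 the log2 fold change was -0.12 ± 0.09 (95% interval -0.31 to 0.07). In RPKM its first dox library was as high as its first no dox library, and on the log2 scale of the fit slightly lower (11.58 against 11.64). These intervals leave out a fall of the size seen for S100A8 and do not show that the levels were equal.

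S100A10 and S100A11, the annexin partners, had log2 fold changes of -0.08 ± 0.09 and -0.07 ± 0.11. S100A11 had 667 and 681 RPKM without dox and 633 and 635 with dox, which do not overlap, whereas on the log2 scale of the fit its groups did. S100A13, which takes part in the release of FGF1, had 236 and 199 RPKM without dox and 249 and 201 with dox, for a log2 fold change of 0.06 ± 0.11. S100A16, a widely expressed member, had 236 and 229 RPKM without dox and 235 and 214 with dox, for a log2 fold change of -0.04 ± 0.10. Both sets of libraries overlapped.

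S100A2 had a log2 fold change of 0.16 ± 0.25, and at 108 to 186 reads a library it had the widest interval of the members, from -0.37 to 0.70. S100P, which binds ezrin and RAGE and is often high in carcinomas, had 139 and 119 RPKM without dox and 186 and 122 with dox. The first dox library was the highest and the second lay between the no dox libraries, with a log2 fold change of 0.23 ± 0.14 (95% interval -0.07 to 0.53).

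On the log2 scale of the fit 7 of the 10 members were lower in replicate 2 than in replicate 1 in both groups, beside 31.6% of all genes. Between replicates 1 and 2 S100A8 differed by 0.28 without dox and by 1.01 with dox, and S100A9 by 0.33 and 0.80. The part of this difference in the fall of S100A8 was not tested.

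S100A8 and S100A9 both stood lower with dox, and S100A8 by more. There were 0.513 and 0.536 reads of S100A8 per read of S100A9 without dox, and 0.370 and 0.323 with dox. The ratio was lower in both dox libraries than in both no dox libraries, and the difference in its log2 mean was -0.60 (-0.93 ± 0.05 to -1.53 ± 0.14, SD, n = 2 each). With 2 libraries against 2, an exact permutation test cannot reach 0.05, and none was run. The ratio of S100A8 to S100A6 went from 0.0171 and 0.0168 reads to 0.00777 and 0.00542, a log2 difference of -1.38. Together S100A8 and S100A9 made up 2.63% and 2.39% of the reads of the 10 genes without dox and 1.53% and 1.09% with dox.

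**Figure D3:**
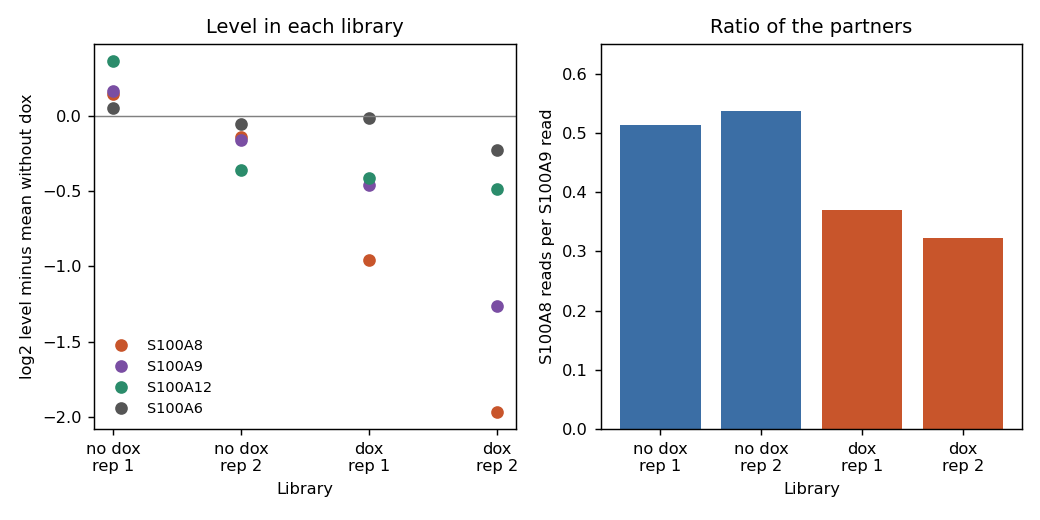
Left, log2 level of S100A8, S100A9, S100A12 and S100A6 in each library, minus the gene's mean without dox. Right, bars from 0 for the reads of S100A8 per read of S100A9 in each library. S100A8 and S100A9 are lowest in the second dox library, and the ratio is 0.513 and 0.536 without dox against 0.370 and 0.323 with dox.

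The likeness of the 2 partners was also ranked against other genes, by the root mean square distance of log2 values centred on each gene's mean over the 4 libraries, among the 12343 genes whose mean count reached 50. S100A9 was the seventh nearest gene to S100A8, at 0.309. The 5 nearest were XAGE2, at 0.141, the pseudogene ENSG00000213959, at 0.227, NACC2, at 0.232, ZC3H12C, at 0.292, and the lncRNA ENSG00000273338, at 0.295. XAGE2, a cancer-testis antigen gene, went from 128 and 108 reads to 44 and 30. S100A4 ranked 487 and S100A6 ranked 2011, and the other members ranked between 4866 and 8038. The distance includes the size of the change with dox, so genes that changed little lie far from S100A8. These ranks therefore restate the fold changes in part and are a description.

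No other gene of the 1q21 cluster was called. Of the 17 S100 genes on chromosome 1, 11 were tested, and without S100A8 and S100A9 the remaining 9 had a median log2 fold change of -0.07, with none at an unadjusted p under 0.05 in limma. In the window from S100A10 to S100A1 with 500 kb to each side, 48 of 153 genes were tested, and the 37 that are not S100 genes had a median of -0.05. None of these 37 was called by limma, 1 was lower and 2 were higher at an unadjusted p under 0.05, and the groups did not overlap for 8 lower and 5 higher, where 19.1% and 19.5% of all genes did not. Between S100A10 and S100A1 alone, without the flanks, 15 of 19 genes tested were below 0, beside 50.1% of all genes. The groups did not overlap for 7 lower and 0 higher. The 8 of them that are not S100 genes had a median of -0.21, with 7 below 0, and 4 were lower without overlap. Of these 4, the lncRNAs CCDST and ENSG00000272030 had mean counts of only 9.75 and 12.25 reads, and LAPTM4BP1 lies between S100A9 and S100A8.

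S100A9 (chr1:153357854-153361023, plus strand, GRCh38) and S100A8 (chr1:153390032-153391073, minus strand) enclose a stretch of 33.2 kb, which was singled out after its values were seen. The 4 genes tested in it all had lower dox than no dox libraries on the log2 scale of the fit, with a median of -0.67, where 19.1% of all genes had lower groups without overlap. Since the stretch holds S100A8, nothing is read from that count. They were S100A9, S100A12, the pseudogene LAPTM4BP1 and S100A8. S100A12, the third calgranulin, numbered 58 and 32 reads in no dox and 23 and 25 in dox, for a log2 fold change of -0.47 ± 0.38 with an adjusted p of 0.748 in limma. Its RPKM of 4.77 and 2.82 without dox overlapped with 2.91 and 2.66 with dox. LAPTM4BP1 numbered 165 and 164 reads in no dox and 73 and 122 in dox, for a log2 fold change of -0.35 with an adjusted p of 0.689 in limma.

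S100A6 begins 143.5 kb beyond S100A8. From there to S100A13, a stretch that holds S100A6, S100A4, S100A3, S100A2, S100A16 and S100A13, the median log2 fold change was 0.01, from -0.27 to 0.16, and the groups overlapped for all 6 genes tested. Overlap was also the more frequent outcome over all genes, of which 19.1% were lower and 19.5% higher without overlap. On the other side S100A11 ends 1310 kb before S100A9. The lowest value in the window was that of the lncRNA ENSG00000272030, at -2.44 with an adjusted p of 0.302 in limma, on 29 and 14 reads in no dox and 5 and 1 in dox.

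**Figure D4:**
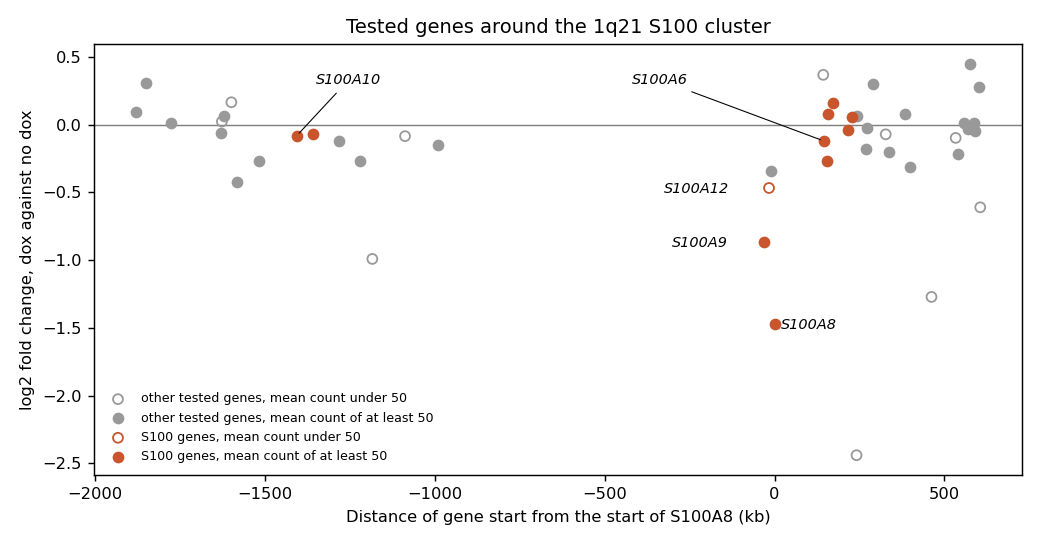
Log2 fold change, dox against no dox, of each of the 48 genes tested around the 1q21 cluster, by the distance of the gene start from that of S100A8 in kb. S100 genes are coloured, and open circles mark genes with a mean count under 50. S100A8, S100A9 and S100A12 lie below the S100 genes on either side.

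Of the 11 S100 genes outside the set, 9 were not tested, with at most 7 reads in any library. They were S100A1, S100A5, S100A7, S100A14, S100B and S100G, and S100A7A, S100A7L2 and S100Z, the last 3 with no read. S100A3 numbered 126 and 112 reads in no dox and 106 and 81 in dox, and since it lies within S100A4 on the same strand its reads are uncertain. The S100 fused-type genes, long skin barrier proteins with an S100 domain, were largely silent: 2 of 7 were tested, TCHH at -0.12 and FLG at -0.09, neither called, and TCHHL1 had at most 2 reads.

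Genes that act with the S100 proteins were counted from lists chosen with these results known, and no gene was called by limma on any of them. Their counts at an unadjusted p under 0.05 stand beside the 4.59% of all genes lower and 4.68% higher. All 13 genes of S100 target proteins were tested, with 2 lower and 1 higher at an unadjusted p under 0.05 and a median log2 fold change of -0.10. The 3 with the highest RPKM were ANXA2, the partner of S100A10, at -0.11, CAPZA1, which caps actin filaments, at -0.10, and CACYBP, the calcyclin-binding protein, at -0.24. Of 12 receptor genes 9 were tested, 1 lower and none higher at an unadjusted p under 0.05 in limma, with a median of -0.08. BSG and NPTN, which encode receptors for S100A9 and S100A8, stood at 0.08 and -0.08, and SDC4 at -0.09. TLR4 had no read in any library.

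S100A8 is a gene of the epithelial innate response, and 17 of 28 such genes were tested, with 4 lower and 3 higher at an unadjusted p under 0.05 and a median of -0.11. SLPI, a secreted protease inhibitor, had 3844 and 3226 RPKM without dox and 3290 and 2417 with dox, for a log2 fold change of -0.37 ± 0.09 with an adjusted p of 0.177 in limma. SAA1, an acute-phase protein gene, had 63.6 and 66.2 RPKM without dox and 41.3 and 43.5 with dox, for a log2 fold change of -0.58 ± 0.13 with an adjusted p of 0.167 in limma. NFKBIA, the inhibitor of NF-κB, stood at 0.20. Of 18 known or proposed regulators of S100A8, 13 were tested, 1 lower and 4 higher at an unadjusted p under 0.05, with a median of 0.13. JUNB stood at 0.42 ± 0.13, with an adjusted p of 0.309 in limma, HIF1A at -0.07 and CEBPB at 0.11.

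Markers of other cells that make much calprotectin were mostly at or near 0. Of 10 myeloid markers, 5 had no read in any library (PTPRC among them), 9 had at most 10 reads, and the summed level was 4.24 and 4.27 RPKM without dox and 4.51 and 4.35 with dox, nearly all from CD14. CSF1R had at most 4 reads and ITGAM at most 3. LOR, 1 of the 18 keratinocyte and squamous genes, was not matched, and of the other 17, 14 had at most 10 reads in every library, and the sum was 44.4 and 41.8 RPKM without dox and 34.6 and 34.3 with dox. KRT17 and SFN were the 2 tested and KRT16 was not, and KRT17 had a log2 fold change of -0.55 ± 0.14 with an adjusted p of 0.228 in limma. The 8 epithelial markers summed to 118 and 126 RPKM without dox and 106 and 109 with dox, with KRT19 at 0. KRT18 stood at a log2 fold change of -0.41, KRT8 at -0.34 and KRT7 at 0.13, none of them called. Of the 7 epithelial markers tested 4 were above 0 (EPCAM, CDH1, KRT7 and CLDN4), all without overlap between groups. Another 2, KRT8 and KRT18, were lower without overlap, and the median of the list was 0.13. Among all genes tested, 19.1% were likewise lower and 19.5% higher with no overlap. The 4 above 0 had unadjusted p-values from 0.128 to 0.377 in limma, beside 0.00956 for KRT8 and 0.00672 for KRT18. The part of KRT17 and of the lower epithelial sum in the fall of S100A8 was not tested.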

How the data were processed

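RNA-seq of 2 no dox and 2 dox samples of MIB1-iKO NCI-H838 cells was analysed, with groups and replicate numbers from the sample labels. Per the study's methods and processing notes, the authors aligned reads to GRCh38 with GSNAP and counted them over exons. The deposited counts are whole numbers of reads per gene, not normalized. The deposited RPKM are reads scaled by gene length and sequencing depth, to which the authors applied a further scaling per library. Which of a low-input and a stranded kit was used, and whether counting used strand, is not given in the sources used here, so genes that overlap on opposite strands, such as S100A13 and S100A1, are uncertain. Symbols and positions are from GENCODE release 44, and 57532 of 58302 identifiers had a symbol.

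Genes were filtered with filterByExpr in edgeR 4.0.16 (16181 kept). Counts were scaled to library size and brought to common quantiles, voom weights were estimated, and dox was compared with no dox by limma 3.58.1 in R 4.3.3 without covariates, with p-values adjusted over all genes tested. Log2 values per library are log2 CPM, computed from the counts, after the quantile step. DESeq2 1.42.0, edgeR and other settings were alternatives. Libraries held 15943025 to 24398411 reads, members other than S100A2 had at least 237 reads in each, and S100A2 had 108 to 186, so that counting error weighs most there. Intervals cover no error beyond these libraries.

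The members, lists and tests were chosen with earlier results of these data known. Named are all members, the other S100 genes, the 3 genes of highest mean RPKM of each list, the 5 genes nearest to S100A8 in pattern, and MIB1. Genes named outside this rule (LAPTM4BP1, ENSG00000272030, CCDST, TLR4, PTPRC, KRT19, EPCAM, CDH1 and CLDN4) were chosen after their values were seen.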

Additional observations from a re-analysis of the deposited data

How the results depend on the processing

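S100A8 was lower with dox under every setting run, but the call depended on the setting. It stood in edgeR, voom with TMM or scaled by library size, a higher filter (mean count 50), the replicate block, removal of trends with GC content and length (added after seeing the data) and an adjusted p alone, with 1 member called in each. No member (0) was called in DESeq2 (S100A8 at -1.40, adjusted p 0.289), with no filter (-1.47, 0.613), on log2(RPKM + 0.1) (-1.49, 0.219), on log2(RPKM + 1) (-1.46, 0.209), or when any 1 library was left out (-1.97 to -0.96, adjusted p 0.721 to 0.896), where the lone library was assumed to vary like the others.

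Over all genes 6 were called, against 2 in DESeq2, 0 with no filter (2092 at an unadjusted p under 0.05), 0 on log2(RPKM + 0.1) (1442), 0 on log2(RPKM + 1) (1438), 11 by adjusted p alone, 78 with the replicate block and 0 to 0 leaving out each library. S100A9 was never called, at -1.26 to -0.47 leaving out each library, although its adjusted p was 0.0389 after removal of the GC and length trends. The ratio of S100A8 to S100A9 ranged from -0.70 to -0.50 leaving out each library. Leaving out 1 library turned the direction of S100A11 (-0.18 to 0.0355), S100A13 (-0.0282 to 0.15), S100A16 (-0.0864 to 0.00485), S100A2 (-0.19 to 0.52) and S100P (-0.0178 to 0.48). The causes were not tested.

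The labels number the replicates without saying what the number marks. Deviations from the group means correlated at 0.134 between same-numbered libraries, which 2 pairs cannot establish as pairing. With the replicate block in limma S100A8 was -1.40 (adjusted p 1.23e-15) and S100A9 -0.83 (4.22e-12), and S100A4, S100A6 and S100P also had an adjusted p of at most 0.05, as did 7.13% of all genes tested. This fit takes the numbers as pairs and estimates a further term from the same 4 libraries. Its p-values therefore rest mostly on the spread shared over all genes, not on replication of each gene, and nothing is read from their size.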
